A study of Homo sapiens with 6 samples.

Results

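The CCND1 amplicon genes are neighbours on the long arm of human chromosome 11, at 11q13-q14, a region that is amplified as DNA in a share of luminal breast tumours. The 10 genes listed for it were CCND1, CTTN, PPFIA1, FADD, PAK1, RSF1, AAMDC, INTS4, GAB2 and SHANK2. Members were all probe sets of the array annotated to these genes by their current or former symbol, which gave 20 of the 22215 probe sets other than controls and 8 of 11963 measured genes. No probe set was listed for PAK1 or INTS4 in the annotation used here, so these 2 genes have no value, and no probe set joined a member with another gene. RNA was measured on 6 Affymetrix arrays from 2 human breast carcinoma cell lines that are labelled as invasive lobular and positive for the estrogen and progesterone receptors. The labels call SUM44 sensitive to tamoxifen, and its 3 cultures had 24 hours with 500 nM of 4-hydroxytamoxifen (4HT), a potent product of tamoxifen metabolism. LCCTam, labelled resistant, was kept without 4HT for 14 days in 3 cultures. Cell line and drug exposure differ together in this design and cannot be told apart, and each group is 1 cell line. Only RNA was measured, so the DNA copy number of the region in these lines was not analysed here.

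Where these genes differed by the test, they were lower in the resistant line. Of the 20 member probe sets, 4 were called lower in LCCTam, 1 each of PPFIA1, CTTN, AAMDC and GAB2, and none was called higher. Over all probe sets 5.96% were called lower and 7.55% higher, with limma and a threshold of 0.05 on the adjusted p. The called differences were modest, between -0.45 and -0.68 on the log2 scale. In bulk RNA, fewer cells with a transcript and less of it per cell cannot be told apart. CCND1 itself was not called, and its 2 probe sets did not give the same difference. Levels are log2 values, every difference is LCCTam minus SUM44, and an interval is the 95% interval of a difference.

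CCND1 encodes cyclin D1, the partner of the kinases CDK4 and CDK6, which phosphorylate the retinoblastoma protein and let cells pass from G1 into S phase. In luminal breast cells its transcription is driven by the estrogen receptor and by growth factor signals. Genes beside it are amplified with it and act in other processes. CTTN encodes cortactin, which stabilises branched actin, PPFIA1 encodes liprin-alpha-1, a scaffold at focal adhesions, and SHANK2 encodes a scaffold best known from synapses. FADD is the adaptor of death receptors. Farther along the arm, PAK1 is a kinase that acts on the cytoskeleton, RSF1 pairs with the ATPase SMARCA5 to remodel nucleosomes, INTS4 is a subunit of the Integrator complex, which cleaves small nuclear RNAs, and GAB2 is a docking protein that carries signals of growth factor receptors to phosphoinositide 3-kinase and SHP2.

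Start site windows are shown for PPFIA1 and GAB2, members with a called probe set, and for AAMDC with RSF1, whose windows share DNA. The RefSeq table of GRCh38.p14 gave windows of 300 bases, 250 before and 50 after a transcript start, for 7 members, PPFIA1, FADD, PAK1, RSF1, AAMDC, INTS4 and GAB2, but not for CCND1, CTTN or SHANK2. PPFIA1 lies at chr11:70270440-70270739 on the plus strand, RSF1 at chr11:77820673-77820972 on the minus strand, AAMDC at chr11:77820894-77821193 on the plus strand and the GAB2 window shown at chr11:78417771-78418070 on the minus strand. Capitals mark GGGCGG (the GC box of SP1), CCAAT (the box of NF-Y) and TGACG (a half-site of the cyclic AMP response element), each on either strand.
PPFIA1: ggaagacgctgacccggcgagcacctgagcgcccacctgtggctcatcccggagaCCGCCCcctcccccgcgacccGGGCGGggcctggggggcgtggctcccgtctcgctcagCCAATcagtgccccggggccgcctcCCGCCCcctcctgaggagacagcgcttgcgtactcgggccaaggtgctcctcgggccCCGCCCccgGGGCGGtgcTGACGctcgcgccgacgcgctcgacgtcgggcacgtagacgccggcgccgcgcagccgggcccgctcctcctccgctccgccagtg
RSF1: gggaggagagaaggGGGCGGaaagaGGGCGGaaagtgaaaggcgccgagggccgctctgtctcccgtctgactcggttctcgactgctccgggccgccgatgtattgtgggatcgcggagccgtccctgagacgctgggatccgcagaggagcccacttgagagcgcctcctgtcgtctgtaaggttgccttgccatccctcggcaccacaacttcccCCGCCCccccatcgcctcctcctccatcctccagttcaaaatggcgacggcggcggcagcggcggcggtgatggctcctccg
AAMDC: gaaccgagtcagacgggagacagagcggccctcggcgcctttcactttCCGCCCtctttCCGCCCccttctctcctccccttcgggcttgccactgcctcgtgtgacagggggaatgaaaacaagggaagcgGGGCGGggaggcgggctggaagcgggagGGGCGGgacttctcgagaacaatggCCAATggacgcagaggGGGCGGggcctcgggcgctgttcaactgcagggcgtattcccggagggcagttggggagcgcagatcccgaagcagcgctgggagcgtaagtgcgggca
GAB2: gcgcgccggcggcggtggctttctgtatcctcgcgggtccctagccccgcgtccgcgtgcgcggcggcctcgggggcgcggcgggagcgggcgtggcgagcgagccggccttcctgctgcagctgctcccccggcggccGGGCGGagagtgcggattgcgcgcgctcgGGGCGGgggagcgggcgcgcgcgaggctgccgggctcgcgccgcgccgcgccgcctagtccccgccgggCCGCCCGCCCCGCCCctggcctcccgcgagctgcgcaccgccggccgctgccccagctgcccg

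RSF1 and AAMDC are transcribed away from each other, and their windows overlap by 79 bases. The first 2 GC boxes of the RSF1 window are the first 2 of the AAMDC window read on the other strand. The PPFIA1 window held 5 GC boxes, 1 CCAAT box and 1 TGACG, AAMDC 5 GC boxes and 1 CCAAT box, RSF1 3 GC boxes and the GAB2 window shown 5, of which 3 overlap in a run. A second GAB2 window, at chr11:78341870-78342169, held none of the 3. GGGCGG was found in 45% of the 35116 windows of the table, CCAAT in 34.6% and TGACG in 24.6%. The E-box CACGTG (7.26% of windows) and the full estrogen response element (0.057%) were searched on both strands as well and matched no member window, while TGANTCA, the site of AP-1 (7.71%), matched 1, that of FADD.

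The LCCTam arrays were less alike than the SUM44 arrays. Over probe sets the SUM44 arrays correlated at 0.994 to 0.995, and LCCTam replicates 1 and 3 at 0.963, below the 0.976 to 0.978 of LCCTam replicate 1 with the SUM44 arrays. Poly-A spike-in controls averaged 6.70 to 7.15 in SUM44 and 7.12 to 7.74 in LCCTam, highest in LCCTam replicate 3. The control probe sets at the 3' and 5' ends of ACTB were -0.11 to -0.05 apart among SUM44 arrays, and -0.05 to 0.21 apart for LCCTam, again highest in replicate 3. Those of GAPDH were -0.06 to 0.20 apart in SUM44, highest in replicate 3, and 0 to 0.11 in LCCTam, with 0.01 in replicate 3. Their part in the results was not tested. Of 8 luminal markers 5 were called, beside 15.2% of all genes in either direction. Called lower in LCCTam were ESR1, KRT8, KRT18 and KRT19, and GATA3 was called higher. ESR1 (11.62 and 10.22 in SUM44 and LCCTam), GATA3 (11.73 and 12.84), FOXA1 (9.30 and 9.52), KRT8 (12.09 and 11), KRT18 (13.76 and 13.34) and KRT19 (12.66 and 11.97) were bright. PGR, the progesterone receptor, was at 4.22 and 4.01, below 5.49, the lower quartile of probe set means, and CDH1 (E-cadherin, often lost in lobular carcinoma) at 6.52 and 6.73. No detection calls were used here, so such dim signal cannot be told from background. All 13 measured markers of basal cells, fibroblasts, immune cells and endothelium were uncalled, and 1 of them (CD14, 5.96 and 6.30) had an unadjusted p under 0.05. The mean level of each of these 4 lists in an array lay between 5.34 and 6.71. Some single markers were brighter, COL1A1 the most (7.83 and 7.99 in SUM44 and LCCTam). The part of other cell types in the results was not tested.

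**Figure D1:**
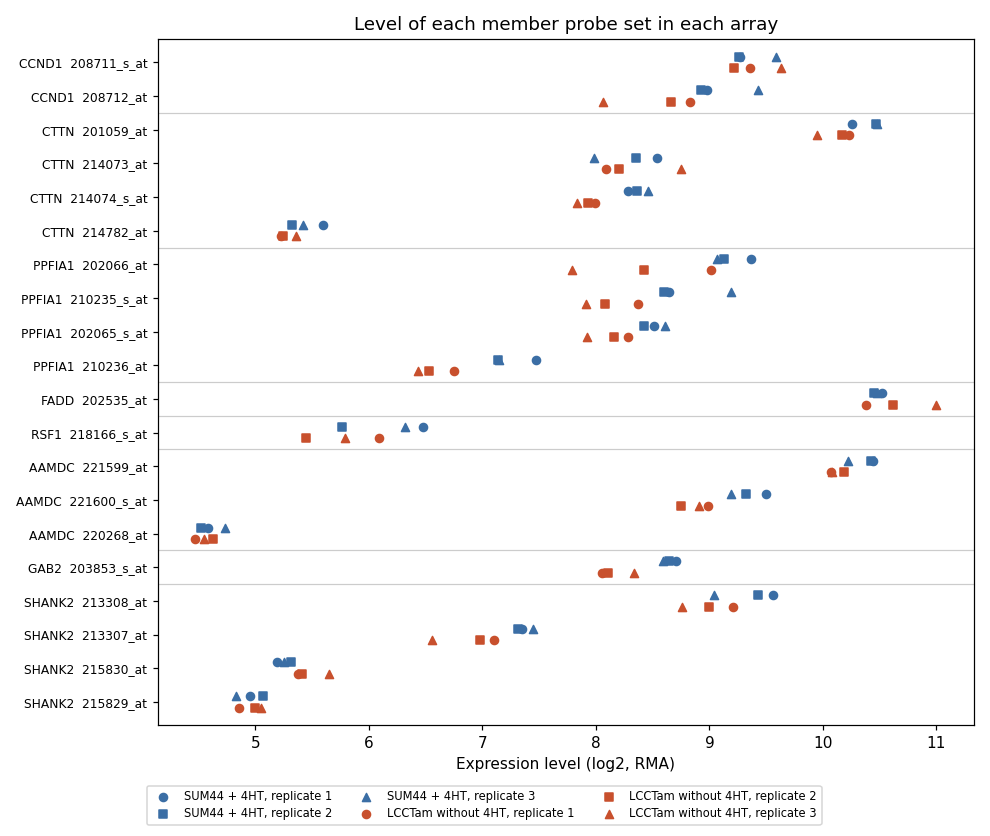
Level (log2, RMA) of each of the 20 member probe sets in each of the 6 arrays. Blue symbols are SUM44 with 4HT and red symbols LCCTam without 4HT, with the replicate given by the symbol. All 4 PPFIA1 probe sets have the 3 LCCTam arrays to the left of the 3 SUM44 arrays, while the symbols of FADD and of the brighter CCND1 probe set overlap.

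CCND1 was measured by 2 bright probe sets. The brighter stood at 9.27, 9.26 and 9.59 in SUM44 replicates 1, 2 and 3 and at 9.36, 9.22 and 9.63 in LCCTam replicates 1, 2 and 3. The groups overlapped fully, with a difference of 0.03 ± 0.15 (SE, interval -0.32 to 0.38, adjusted p = 0.914). This value was negative after cyclic loess (-0.06), and also without SUM44 replicate 1 (-0.02), SUM44 replicate 2 (-0.03) or LCCTam replicate 3 (-0.09), so it has no settled sign.

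The second CCND1 probe set stood at 8.98, 8.93 and 9.43 in SUM44 and at 8.83, 8.66 and 8.06 in LCCTam. Every LCCTam array was below every SUM44 array, and replicate 3 was far the lowest. The difference was -0.59 ± 0.22 (interval -1.12 to -0.07) and was not called (adjusted p = 0.13). With 1 array left out it ranged from -0.37 without LCCTam replicate 3 (adjusted p = 0.238) to -0.75 without LCCTam replicate 1, the only one of the 6 settings that called it (adjusted p = 0.026). Subtracting the brighter probe set from it array by array gave -0.29, -0.33 and -0.17 in SUM44 and -0.53, -0.56 and -1.57 in LCCTam. The 2 probe sets of this gene thus lay farther apart in each LCCTam array than in any SUM44 array. This contrast was chosen after the values were seen. The exact two-sided permutation test gave p = 0.1, the smallest that 3 arrays against 3 allow, or 0.3 after Benjamini-Hochberg adjustment over 3 such pairs. With full separation already seen, this outcome was fixed beforehand and adds no support. The other pairs, of CTTN and SHANK2, gave unadjusted p = 0.5 and 0.2 by this test.

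PPFIA1, the liprin scaffold, was lower in every LCCTam array at each of its 4 probe sets. The brightest stood at 9.37, 9.13 and 9.07 in SUM44 and at 9.01, 8.42 and 7.79 in LCCTam. LCCTam replicate 1 lay just under the SUM44 arrays and replicate 3 far below them. The SD was 0.61 in LCCTam and 0.16 in SUM44, and the difference of -0.78 ± 0.28 (interval -1.44 to -0.13) was not called (adjusted p = 0.114). The dimmest stood at 7.47, 7.14 and 7.15 in SUM44 and at 6.75, 6.53 and 6.43 in LCCTam. It fell by 0.68 ± 0.14, a 1.6-fold lower level, and was called (adjusted p = 0.0181).

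Of the remaining PPFIA1 probe sets, the second brightest differed by -0.69 (adjusted p = 0.0558) and the third by -0.39 (adjusted p = 0.0792). For all 4 the LCCTam arrays lay below the SUM44 arrays, which held for 13.1% of all probe sets, and LCCTam replicate 3 was the lowest array. The 4 probe sets measure transcripts of 1 gene and are not independent of each other. The mean over them gave -0.64 (adjusted p = 0.0316 among genes), and without LCCTam replicate 1 all 4 were called, with differences from -0.47 to -1.08. Without LCCTam replicate 3 the differences were -0.29 to -0.61 with 1 called, and the brightest moved to -0.48. No other array left out gave a call.

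CTTN, which encodes cortactin, had 4 probe sets that did not all move alike. The called one stood at 8.28, 8.36 and 8.46 in SUM44 and at 7.99, 7.93 and 7.83 in LCCTam. The arrays were tight within each group (SD 0.09 and 0.08), and it fell by 0.45 ± 0.10 (adjusted p = 0.0264). The brightest of them stood at 10.26, 10.47 and 10.48 in SUM44 and at 10.23, 10.17 and 9.95 in LCCTam. It was also lower in every LCCTam array, by a difference of -0.29 ± 0.12 that was not called (adjusted p = 0.157). Of the other two, the dim one differed by -0.17 (adjusted p = 0.35). The last had its highest level, 8.75, in LCCTam replicate 3 and its lowest, 7.98, in SUM44 replicate 3, with a difference of 0.06 (interval -0.43 to 0.54, adjusted p = 0.883).

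SHANK2, next to CTTN, was lower in LCCTam at its brighter probe sets, though not by the test. The second brightest stood at 7.35, 7.31 and 7.45 in SUM44 and at 7.10, 6.98 and 6.56 in LCCTam, groups that did not overlap. Its difference was -0.49 ± 0.15 (adjusted p = 0.0748). With 1 array left out it ranged from -0.33 without LCCTam replicate 3 (adjusted p = 0.0876) to -0.60 without LCCTam replicate 1, the only one of the 6 settings that called it (adjusted p = 0.0126). Its brightest probe set stood at 9.56, 9.43 and 9.04 in SUM44 and at 9.21, 9 and 8.76 in LCCTam, and differed by -0.35 (adjusted p = 0.231) with overlapping groups. Both remaining probe sets had means under 5.49, and 1 of them was slightly above SUM44 in every LCCTam array (0.23, adjusted p = 0.219). That was the only member probe set with LCCTam above SUM44 throughout, a pattern found at 20% of all probe sets.

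FADD, the death receptor adaptor, stood at 10.52, 10.45 and 10.48 in SUM44 and at 10.38, 10.62 and 11 in LCCTam. The SUM44 arrays were nearly level and fell within the LCCTam range. The difference was 0.18 ± 0.16 (interval -0.19 to 0.56, adjusted p = 0.492). It was 0.02 without LCCTam replicate 3 and 0.33 without LCCTam replicate 1 (adjusted p = 0.0923). Its neighbour on the chromosome, PPFIA1, was lowest in the same LCCTam replicate 3 in which FADD was highest.

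The members of the more distant block had lower values in LCCTam. GAB2, the docking protein, stood at 8.71, 8.64 and 8.59 in SUM44 and at 8.05, 8.11 and 8.34 in LCCTam. Here LCCTam replicate 1 was the lowest array and replicate 3 the nearest to SUM44, the reverse of PPFIA1. GAB2 fell by 0.48 ± 0.11, a 1.4-fold lower level (interval -0.74 to -0.22, adjusted p = 0.0292), and was the only member called at its brightest probe set. It has 1 probe set on this array. The call was lost with array weights (-0.45, adjusted p = 0.074). With 1 array left out, limma kept it in 2 of 6 settings, without LCCTam replicate 1 (adjusted p = 0.025) or 3 (0.0119). In the rest the adjusted p was 0.0936 to 0.127. At brightest probe sets 1 of 8 member genes was called lower, beside 6.32% of all genes.

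AAMDC, a small protein linked to adipocyte differentiation, had 2 bright probe sets and 1 dim. The second in brightness stood at 9.50, 9.32 and 9.19 in SUM44 and at 8.99, 8.75 and 8.91 in LCCTam. It fell by 0.46 ± 0.12 (adjusted p = 0.0471). This call was lost in limma with trend and robust fitting of the variances (adjusted p = 0.0638) and with array weights (0.21). With 1 array left out it remained only without LCCTam replicate 1 (adjusted p = 0.0177). At the brightest, levels stood at 10.44, 10.42 and 10.22 in SUM44 and at 10.07, 10.19 and 10.08 in LCCTam. The groups did not overlap there either, but the difference of -0.24 ± 0.10 was not called (adjusted p = 0.17). At the dim one (4.61 and 4.55) the difference was -0.06 (adjusted p = 0.739).

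RSF1, whose start window overlaps that of AAMDC, had 1 rather dim probe set. It stood at 6.48, 5.76 and 6.32 in SUM44 and at 6.09, 5.45 and 5.79 in LCCTam. The groups overlapped because SUM44 replicate 2 was low, and the difference was -0.41 ± 0.23 (interval -0.94 to 0.12, adjusted p = 0.286). At this spread the pair cannot be ordered by the size of its differences, since the RSF1 interval covers the AAMDC values.

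**Figure D2:**
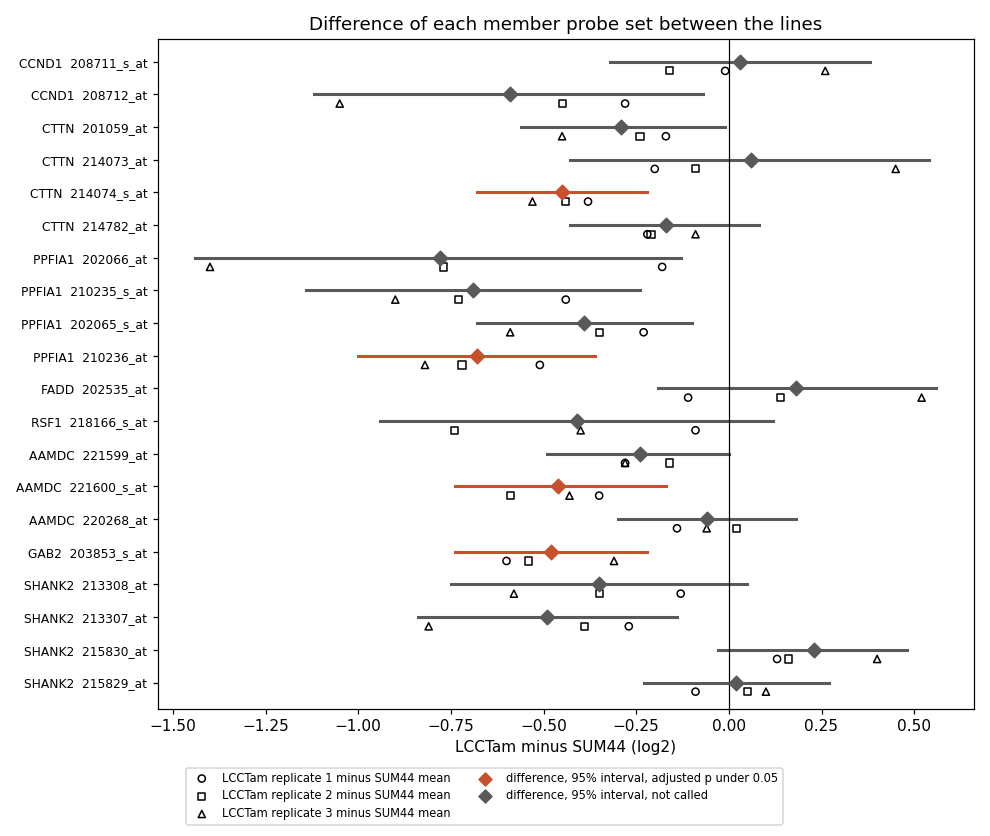
Difference between LCCTam and SUM44 (log2) for each member probe set. Diamonds are differences with their 95% intervals (red where the adjusted p is under 0.05, grey otherwise), and open symbols are the 3 LCCTam arrays, each minus the SUM44 mean. The 4 red diamonds lie between -0.45 and -0.68, and the PPFIA1 symbols spread farthest in replicate 3.

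Across the members, 15 of the 20 differences were negative, beside 37.5% of all probe sets. After cyclic loess, which moved the median of all probe sets from 0.07 to 0, 18 of the 20 were negative, beside 49.8% of all probe sets. By brightest probe set, 6 of 8 genes were negative, against 37.0% of all genes, and the median was -0.32 beside 0.08 over all genes. LCCTam arrays lay below all SUM44 arrays at 11 of the 20 probe sets, beside 13.1% of all probe sets. Among genes that held for 4 of 8, beside 13.5% of all genes, and none of the 8 had LCCTam above SUM44 throughout, beside 21.8%. The median deviation of the 20 probe sets from the SUM44 mean was -0.21, -0.35 and -0.41 in LCCTam replicates 1, 2 and 3, against -0.01, 0.08 and 0.14 over all probe sets. It was thus smallest in the LCCTam array that is most like SUM44. Within LCCTam, replicate 3 was the lowest array at 9 member probe sets and replicate 1 at 8.

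The calls moved with the array left out. Without SUM44 replicate 1, 2 or 3 or LCCTam replicate 2, limma called 0 member probe sets lower. In these settings 9, 9, 9 and 8 of them had an unadjusted p under 0.05 and a lower level. With all arrays 11 of them did, beside 13.4% of all probe sets. Without LCCTam replicate 1, 9 were called lower, those of PPFIA1 (all 4), GAB2, CTTN and AAMDC (1 each), the dimmer one of CCND1 and the second brightest of SHANK2. Without LCCTam replicate 3 there were 3, of GAB2, PPFIA1 and CTTN. None was called higher in any of these, and the share of all probe sets called moved along with the members, from 3002 calls with all arrays to between 1110 and 6990.

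The same region was next read gene by gene in chromosome order. The stretch ran from 10 measured genes before CCND1 to 10 after GAB2 and held 83 genes, of which 9 were called lower and 2 higher, where 6.32% and 8.93% of all genes were called. The 5 measured genes from PAK1 to GAB2 were all negative, with a median of -0.41. The 8 genes from CCND1 to SHANK2 were 4 negative and 4 positive, with a median of 0.00 and none called. Of these 8, 2 were lower at an unadjusted p under 0.05, beside 1700 of all 11963 genes. The 50 genes between the blocks had a median of 0.14. Over the 649 other genes of chromosome 11 the median was 0.09. A lower level was therefore not shared along the stretch as a whole.

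**Figure D3:**
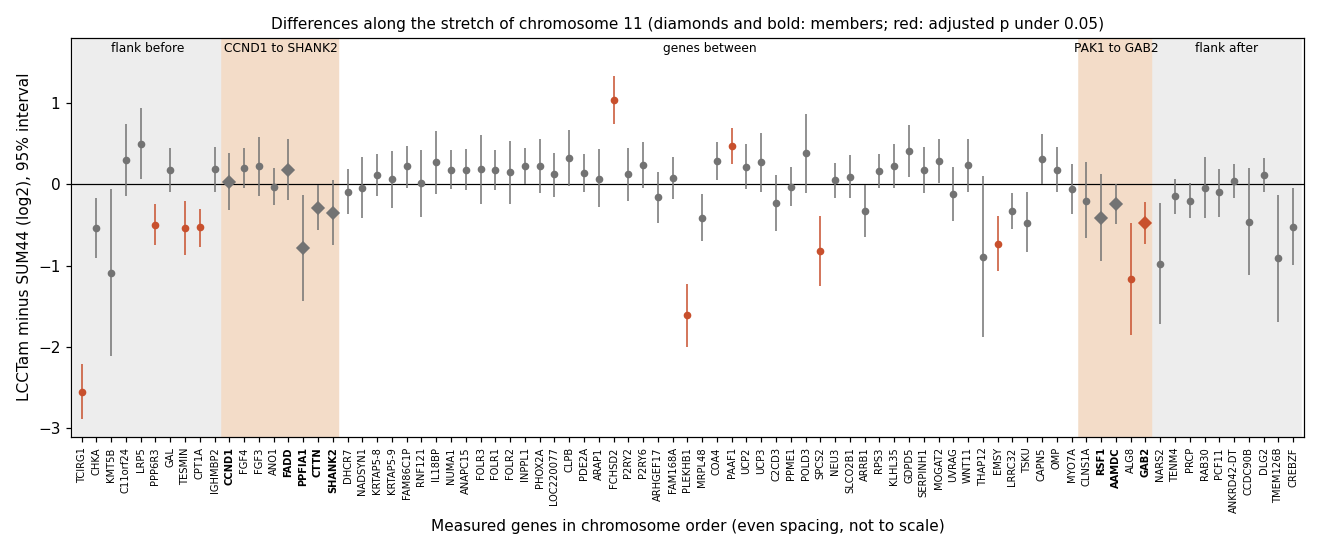
Difference between LCCTam and SUM44 (log2, with 95% intervals) for 83 measured genes in their order on chromosome 11, evenly spaced. Diamonds and bold names are members, red marks an adjusted p under 0.05, and shaded blocks run from CCND1 to SHANK2 and from PAK1 to GAB2. Called genes lie before CCND1, between the blocks and from PAK1 to GAB2, with TCIRG1 (-2.55) and PLEKHB1 (-1.61) lowest and FCHSD2 (1.04) highest.

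Within the first block the fibroblast growth factor genes FGF3 and FGF4 and the chloride channel gene ANO1 were the genes beside the members. FGF3 (4.90 and 5.12) and ANO1 (3.89 and 3.87) had means under the lower quartile, FGF4 was at 6.40 and 6.60, and none of the 3 was called. Within the second block ALG8, a glucosyltransferase of N-glycan assembly, stood at 12.32, 12.31 and 12.21 in SUM44 and at 11.58, 11.41 and 10.36 in LCCTam. It fell by 1.16 ± 0.29 (adjusted p = 0.0416), most in replicate 3. CLNS1A, an assembly factor for small nuclear ribonucleoproteins, differed by -0.20 (adjusted p = 0.559).

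Before CCND1, 4 of the 10 flanking genes were called lower and none higher, beside 6.32% and 8.93% of all genes. TCIRG1, a subunit of the proton pump of lysosomes, fell from 12.05 ± 0.12 (SD, n = 3) to 9.50 ± 0.25, a 5.84-fold lower level (-2.55 ± 0.15 SE, adjusted p = 0.000111). TESMIN fell by 0.54. CPT1A, which attaches fatty acids to carnitine for entry into mitochondria, fell by 0.53. PPP6R3, a regulatory subunit of phosphatase 6, fell by 0.50. Of the 3 further probe sets of CPT1A, 2 were called lower as well. After GAB2 none of 10 was called. At an unadjusted p under 0.05, 3 were lower and none higher, beside 1700 and 2109 of all 11963 genes.

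Between the blocks, FCHSD2, a regulator of membrane trafficking, rose by 1.04 ± 0.12 (adjusted p = 0.00265) and PAAF1, a proteasome assembly factor, by 0.47. PLEKHB1 fell by 1.61 ± 0.17 (adjusted p = 0.00143), SPCS2, a subunit of the signal peptidase, fell by 0.82, and EMSY, a BRCA2-binding repressor, fell by 0.73. EMSY was dim, at 5.93 in SUM44 and 5.20 in LCCTam, and so was FCHSD2, at 5.45 and 6.49. Of the 11 calls in the stretch, those of TCIRG1, FCHSD2 and PLEKHB1 remained with each array left out in turn.

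Genes that act with the members were taken from 9 lists by role, 111 measured genes in all, of which 14 were called higher and 5 lower (8.93% and 6.32% of all genes). Their median was 0.06. In the cyclin D1, CDK and RB axis, 3 of 24 measured genes were higher, 1 lower and 20 not called. CDK4, the kinase partner of cyclin D1, rose from 10.47 ± 0.08 (SD, n = 3) to 11.28 ± 0.21 (0.81 ± 0.13 SE, adjusted p = 0.00771). TFDP1, the dimerisation partner of E2F factors, rose by 0.40 and CDK2, the kinase of S phase entry, by 0.41 (adjusted p = 0.0499). The second TFDP1 probe set (0.46, adjusted p = 0.085) and both further CDK2 probe sets (0.28 and 0.29, adjusted p = 0.262 and 0.32) were not called. RBL2, a pocket protein related to RB1, fell by 1.32 (adjusted p = 0.0305), while its second probe set gave -0.85 (adjusted p = 0.0557).

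Of 15 genes of cortactin and branched actin, 4 were lower, 1 higher and 10 not called. Over all genes 6.32% were called lower and 8.93% higher. NCK2, an adaptor that recruits actin nucleation factors, fell by 1.11 ± 0.15 (adjusted p = 0.00402). Of 7 measured subunits of the Arp2/3 complex, 3 were lower, with -0.88 ± 0.13 for ARPC1B, -0.81 for ARPC2 and -1.53 for ACTR3 (adjusted p = 0.0309). The further probe sets of ARPC2 and ACTR3, 2 each, were also called lower. The other 4 subunits were not called, with -0.27 for ARPC5, -0.20 for ARPC3, -0.03 for ARPC4 and 0.21 for ARPC1A. WASF2, which activates the complex, rose by 0.58. The list's median was -0.04, and its other measured members were not called.

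Among liprins and LAR phosphatases 3 of 11 were higher and none lower, beside 8.93% and 6.32% of all genes. At an unadjusted p under 0.05, 4 were higher and 1 lower, beside 2109 and 1700 of all 11963 genes. PPFIBP2, a beta liprin, rose by 0.85 ± 0.09 (adjusted p = 0.00151), and PPFIA3, the relative of PPFIA1, by 0.51. PPFIBP1 rose by 0.36, but its 3 dimmer probe sets were not called. Of its other relatives, PPFIA4 was lower in every LCCTam array (-0.35, adjusted p = 0.155) and PPFIA2 differed by 0.08 (adjusted p = 0.769). PPFIA1 itself thus differed in sign from the called members of its family but not from PPFIA4, and this was not tested.

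**Figure D4:**
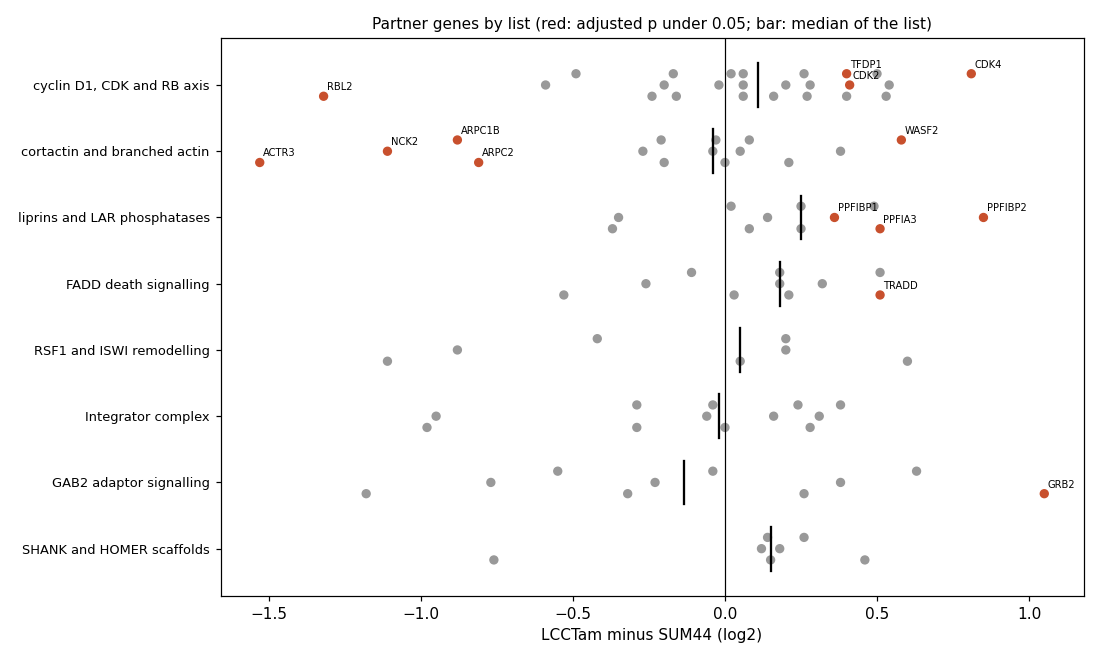
Difference between LCCTam and SUM44 (log2) of each partner gene, by list. Each point is 1 gene at its brightest probe set, for 8 of the 9 lists, red where the adjusted p is under 0.05, and the vertical bar is the median of the list. The red points of the actin list lie on the lower side except WASF2 (0.58), and those of the liprin list on the higher side.

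GRB2, the adaptor that brings GAB2 to activated receptors, rose by 1.05 ± 0.10 (adjusted p = 0.00111), the only call among 10 genes of GAB2 adaptor signalling. TRADD, an adaptor of the tumour necrosis factor receptor, rose by 0.51 (adjusted p = 0.027), the only call among 10 genes of FADD death signalling. A single call in 10 stands beside 8.93% of all genes called higher and 6.32% lower. At an unadjusted p under 0.05, 4 genes of the GAB2 list were higher and 3 lower, and of the FADD list 2 and 2. The lists of RSF1 and ISWI remodelling (7 genes), the Integrator complex (12) and SHANK and HOMER scaffolds (7) had no call by limma. In them 4, 3 and 1 genes had an unadjusted p under 0.05, in either direction. At that threshold 2109 of all 11963 genes were higher and 1700 lower. SMARCA5, the partner of RSF1, had the smallest p of its list (-1.11 ± 0.31, adjusted p = 0.0547), INTS9 that of Integrator (0.38, adjusted p = 0.127) and HOMER2 that of the scaffolds (0.46, adjusted p = 0.0601).

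With each array left out in turn, the calls of CDK4, NCK2, ARPC1B, PPFIBP2 and GRB2 remained in all 6 settings. Those of WASF2, PPFIA3 and PPFIBP1 remained in 1 setting, without LCCTam replicate 1. Those of the other partner genes named here remained in 2 to 5 settings. The number of partner genes called ranged from 3 to 29 higher and from 2 to 21 lower.

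The 5 genes whose level followed the brighter CCND1 probe set most closely over the 6 arrays, of 11962 compared, were PRR11 (Pearson r = 0.999), RPS6KB1 (0.968), BCHE (0.968), GTF2F2 (0.96) and ITGA10 (0.955). PRR11 was at 8.80, 8.81 and 8.98 in SUM44 and at 8.85, 8.79 and 8.99 in LCCTam. Replicate 3 was the highest array of each group, as for CCND1, which follows from how PRR11 was picked. With 6 arrays and 11962 genes, such high r values can arise without any relation between genes. BCHE and GTF2F2 were very dim (means of 3.81 to 3.84). The 6 arrays share their normalisation, and none of the 5 was called different between the lines.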

How the data were processed

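RNA from 6 flasks was hybridised to 6 Affymetrix arrays. The values analysed are log2 levels, deposited by the authors after RMA, a method that removes background, normalises arrays by quantiles and summarises the probes of a set. This comes from the design text of the series and the submitters' processing notes, and the version is not given in the sources used here. The titles call the arrays biological replicates without saying how cultures were kept apart, so p-values measure the spread between these samples. Of 22283 probe sets, 68 controls were left out. By the platform's annotation 19065 probe sets had 1 gene, 1043 several and 2107 none. RefSeq (GRCh38.p14) updated the symbols of 19053 by gene ID and gave the gene order.

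A linear model with moderated variances (limma 3.58.1, R 4.3.3; lmFit and eBayes) was fitted to all 6 arrays, two-sided, with Benjamini-Hochberg adjustment over 22215 probe sets. A gene was read at its brightest probe set. The code was checked on simulated data. With 3 arrays a group, precision is limited.

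The members, lists and tests were chosen with earlier results of these data known. The rule for names took all members, in each part of the stretch the 3 called genes with the largest difference in each direction, in each partner list the 3 called genes of smallest adjusted p (or the 1 of smallest p), the luminal markers and the 5 genes most like CCND1. PPP6R3, CLNS1A, FGF3, FGF4, ANO1, CDK2, ACTR3, ARPC1A, ARPC3, ARPC4, ARPC5, WASF2 and CD14 fall outside it and were named after their values were seen. The same holds for PPFIA2, PPFIA4 and COL1A1. The genes of 1 partner list are in the totals but are not reported here.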

Additional observations from a re-analysis of the deposited data

How the results depend on the processing

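The median of the member genes stayed negative under every alternative that gave it, from -0.40 after cyclic loess to -0.23 without LCCTam replicate 3. It could not be given with either filter on dim probe sets, which removed RSF1. Member probe set counts could not be given for the 2 fits by gene. With each array left out in turn, 0 to 9 member probe sets were called lower, 631 to 3538 of all probe sets higher and 471 to 3452 lower, 1 to 7 genes of the stretch higher and 2 to 18 lower, and 3 to 29 partner genes higher and 2 to 21 lower. GAB2 ranged from -0.57 to -0.42, PPFIA1 from -1.08 to -0.48 and CCND1 from -0.09 to 0.14. Array weights gave 0 lower member probe sets (7 at an unadjusted p under 0.05), 977 probe sets higher and 726 lower, 4 genes of the stretch lower, 6 partner genes higher and 3 lower, and no GAB2 call (-0.45). They set LCCTam replicate 2 at a weight of 0.00. At an adjusted p under 0.01 there were 0 lower member probe sets, 613 probe sets higher and 439 lower, 1 gene of the stretch higher and 2 lower, and 4 partner genes higher and 3 lower, without GAB2 (-0.48). Cyclic loess turned CCND1 to -0.06 and left 8 partner genes higher. Averaging the probe sets of each gene gave -0.28 for CCND1 and called PPFIA1 (-0.64). Only 1 gene of the stretch was called higher among probe sets above the median level. Same-numbered arrays deviated from their group means with correlations of 0.48, 0.34 and -0.07, and arrays of unlike number with -0.6 to 0.49. Deviations of 3 arrays sum to 0 within a group, so these values cannot settle whether the numbers pair the samples. With the replicate number as a replicate block, 6 member probe sets, 4 genes of the stretch higher and 15 lower were called, and so were PPFIA1 (-0.78) and RSF1 (-0.41). The cause of these changes was not tested, beyond fewer samples or a stricter threshold where the setting is one.

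Without detection calls, dim probe sets of SHANK2, AAMDC and CTTN carry no usable level. Several uncalled members, such as RSF1 and the second CCND1 probe set, have intervals that cover the called differences.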
